A study of Mus musculus with 32 samples.

Results

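Retinoic acid is made, destroyed and carried inside cells by a small group of proteins, and the expression of 9 of their genes was examined in the uterus of newborn mice. The genes were Rbp4 and Stra6 for retinol delivery, Aldh1a1, Aldh1a2 and Aldh1a3 for synthesis, Cyp26a1 and Cyp26b1 for breakdown, and Crabp1 and Crabp2 for binding. They were chosen by name, as all array probes annotated to exactly 1 of these symbols, which gave 10 of the 45018 probes in the table. All 9 genes passed the filter on dim probes and stand among 17145 genes tested. Aldh1a3 had 2 probes and every other gene had 1.

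Uteri of CD-1 females were collected at postnatal day 5, and their total RNA was hybridised to single-colour Agilent arrays, with 1 array for each of 32 samples in 8 groups of 4. In the Esr1 line the groups were Esr1 conditional knockout (cKO) after diethylstilbestrol (DES), Esr1 wild type (WT) after DES, Esr1 cKO after vehicle, and Esr1 WT after vehicle. In the other lines the groups were Foxa2 cKO and Foxa2 WT, both after DES, and Foxo1 cKO and Foxo1 WT, both after DES. The series design describes the 4 samples of a group as biological replicates. DES is a synthetic estrogen that binds estrogen receptor alpha, the product of Esr1. Both Foxa2 and Foxo1 code for forkhead proteins that regulate transcription. The sources used here do not give the Cre driver of the knockouts, the DES dose or the litters, and no vehicle-treated uteri of the Foxa2 and Foxo1 lines were analysed here. The comparisons ask how DES alters expression in Esr1 cKO and Esr1 WT uteri, and how Foxa2 cKO or Foxo1 cKO uteri differ from their WT after DES.

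Cells oxidise retinol to retinaldehyde and retinaldehyde to retinoic acid, and retinoic acid then activates nuclear receptors that bind DNA as pairs. CYP26 enzymes clear it, and their genes are themselves known to be switched on by retinoic acid. In the mouse Müllerian duct, retinoic acid signalling in the stroma is known to favour uterine over vaginal development.

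A level below is the log2 intensity of a probe minus the 75th percentile of its array, so that 0 lies at that percentile. Levels of different genes are not set against each other. Changes are differences of group means with the standard error (SE) of the limma fit over all 32 arrays, and a gene was called at a Benjamini-Hochberg adjusted p under 0.05 over all genes tested. In whole uterus, fewer cells of a type and less RNA per cell cannot be told apart.

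The knockouts were checked on their own genes. Esr1 had a level of 0.27 ± 0.15 in DES-treated Esr1 cKO and 2.23 ± 0.10 in DES-treated Esr1 WT uteri (SD, n = 4 each), a limma difference of -1.96 with an adjusted p of 0.000391. After vehicle the mean Esr1 level was 2.55 in Esr1 cKO and 3.29 in Esr1 WT, a difference of -0.74 with a limma adjusted p of 0.33. Esr1 signal thus remained in Esr1 cKO uteri, and a change there is not shown to occur without the receptor. The differences were -2.99 for Foxa2 and -2.64 for Foxo1 in their own lines (limma adjusted p = 4.47e-05 and 1.04e-09). Where these probes lie relative to the deleted exons was not known here. A pair of arrays stood apart: the array 75th percentile was 9024 for DES-treated Foxa2 WT replicate 1 and 551 for vehicle-treated Esr1 WT replicate 4, against 697 to 1787 on the others. On the second of these, Xist, which coats the inactive X chromosome, had a level of -2.35, against 1.62 to 4.02 on the other 31 arrays, which goes against its label as female, while the Y-linked genes Kdm5d, Uty and Eif2s3y were not above the 30th percentile of that array. For the genes chosen by name, values without these arrays are given where a call changed. Their changes of direction or range are given only in part. For the other gene lists and the cell type markers, no values without these arrays are given.

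Of the 9 genes, Cyp26a1 was the one whose response to DES differed most between Esr1 genotypes, and its promoter region is shown because it carries a pair of hexamers of the kind that retinoic acid receptors bind. RefSeq windows (GRCm38.p6, 250 bases before a start site to 50 after it) were at hand for 7 of the 9 genes, in 12 windows, and Aldh1a3 and Crabp2 had none. The 250 bases before each start were searched on both strands for the half-site AGGTCA and the alternative forms AGTTCA, as well as GGGTCA, as well as GGTTCA, repeated in the same direction with 5, 2 or 1 bases between them. The Cyp26a1 window held a repeat with 5 bases between the half-sites, on the minus strand, from 32 to 16 bases before the listed start at position 37697808. This is the only member window with such a repeat, and 0.0883% of all 32851 windows hold one with that spacing. Repeats with spacings of 2 and 1 were found in 0.174% and 0.164% of all windows and in no member window. The 30 bases around the Cyp26a1 repeat (chr19:37697770-37697799, plus strand, half-sites in capitals) lie after the start of the annotated gene at 37697738. The bases before the annotated genes of both Cyp26 enzymes are also given. They are chr19:37697558-37697737 on the plus strand for Cyp26a1 and chr6:84593909-84594060 on the minus strand for Cyp26b1. Neither of these stretches holds a half-site.
Cyp26a1 repeat: taaagaTGAACTttgggTGAACTaatttgt
Cyp26a1 upstream: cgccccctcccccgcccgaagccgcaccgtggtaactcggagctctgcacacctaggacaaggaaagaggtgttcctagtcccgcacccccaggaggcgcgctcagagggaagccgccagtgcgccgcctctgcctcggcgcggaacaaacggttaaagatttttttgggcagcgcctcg
Cyp26b1 upstream: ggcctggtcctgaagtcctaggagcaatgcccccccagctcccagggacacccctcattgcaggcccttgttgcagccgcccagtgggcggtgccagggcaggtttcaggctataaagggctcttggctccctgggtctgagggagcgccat
Single half-sites were found in 38.6% of all windows, and in those of Aldh1a1 and Rbp4 besides Cyp26a1. The estrogen response element GGTCANNNTGACC was in 0.0639% of all windows and in no member window. The forkhead motif GTAAACA was in 3.17% of all windows, and among the members in that of Rbp4. A match here is a match of letters and not evidence of binding.

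With DES, 6 of the 9 genes were called in Esr1 cKO and 8 in Esr1 WT, and in both genotypes more fell than rose. In Esr1 WT, 2 of 9 genes rose and 6 fell, against 21.5% of all genes tested that were called higher and 30.3% called lower. In Esr1 cKO, 1 rose and 5 fell, against 6.39% called higher and 2.58% called lower. The count of 6 in Esr1 cKO was 4 at an adjusted p under 0.01 and also 4 when any one of vehicle-treated Esr1 cKO replicates 1 and 3 and DES-treated Esr1 cKO replicates 1 and 2 was left out. The median change with DES was -0.90 in Esr1 cKO and -2.16 in Esr1 WT for the 9 genes, and -0.04 and -0.16 for all genes tested. The difference between the genotypes in their response to DES, tested as an interaction, was called for 8 of 9 genes, 6 with a more positive change in Esr1 cKO and 2 with a more negative one, against 15.4% and 11.9% of all genes. With the array median in place of the 75th percentile, the median change of all genes with DES in Esr1 WT was 0.09. Without vehicle-treated Esr1 WT replicate 4 the calls in Esr1 WT were kept for all but Crabp2, the 8 interactions were kept, and the changes in Esr1 WT were -2.20 for Aldh1a1, -1.23 for Aldh1a2, -3.37 for Aldh1a3, -0.44 for Cyp26a1, 0.87 for Rbp4 and -2.42 for Stra6.

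**Figure D1:**
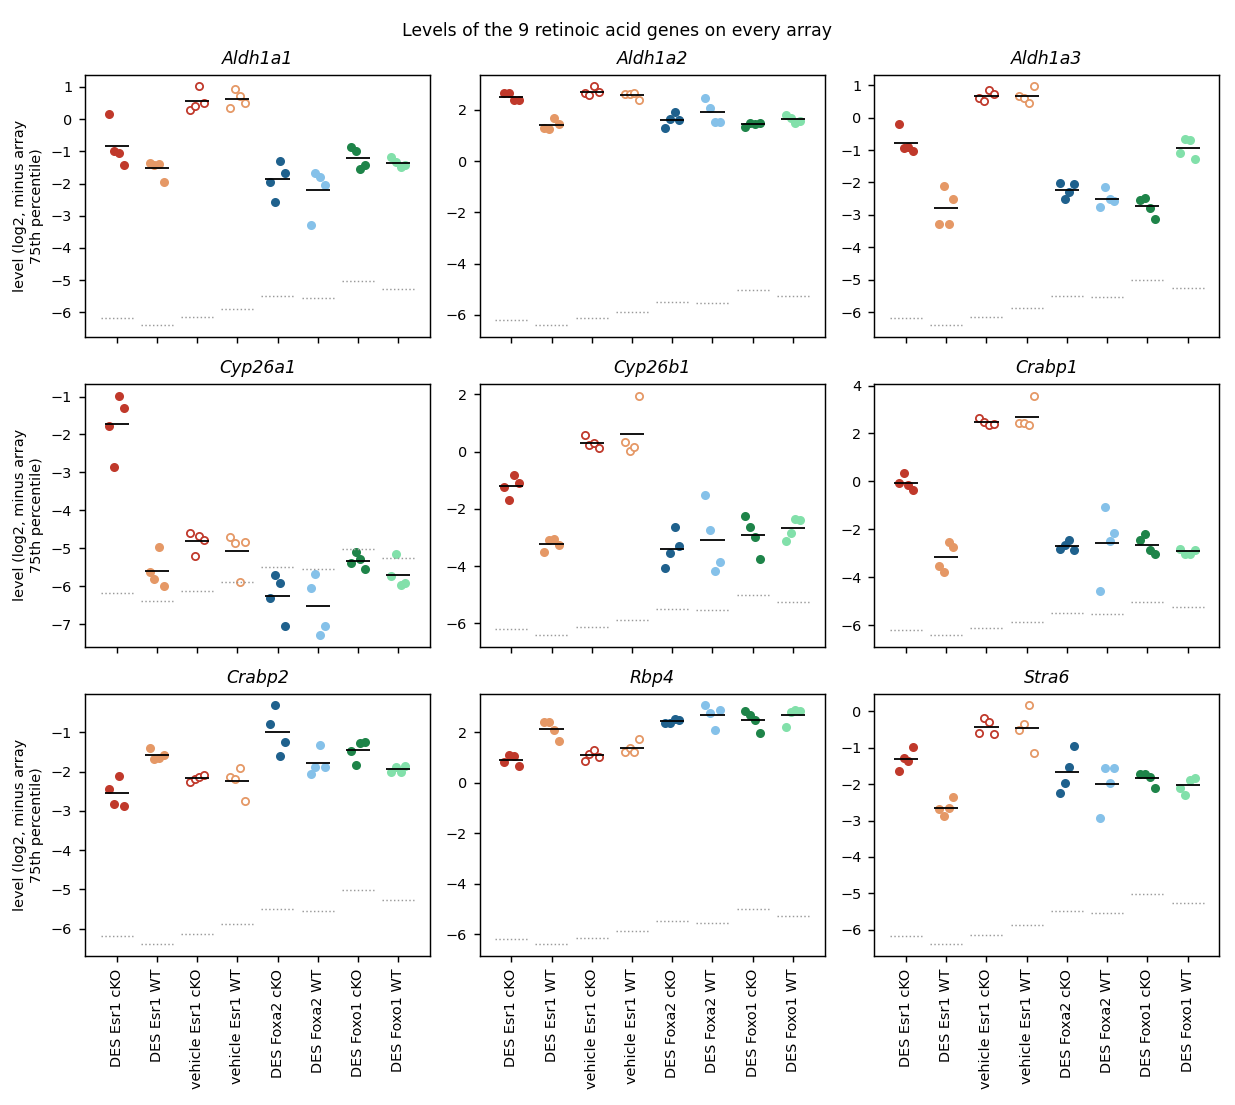
Level of each of the 9 genes (log2, minus the array 75th percentile) on every array, with 1 point per array, open for vehicle, a black line at the group mean and a dotted line at the mean 30th percentile of the group's arrays. Cyp26a1 was high in DES-treated Esr1 cKO uteri (mean -1.73), and the other 7 groups lay between -6.51 and -4.81.

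**Figure D2:**
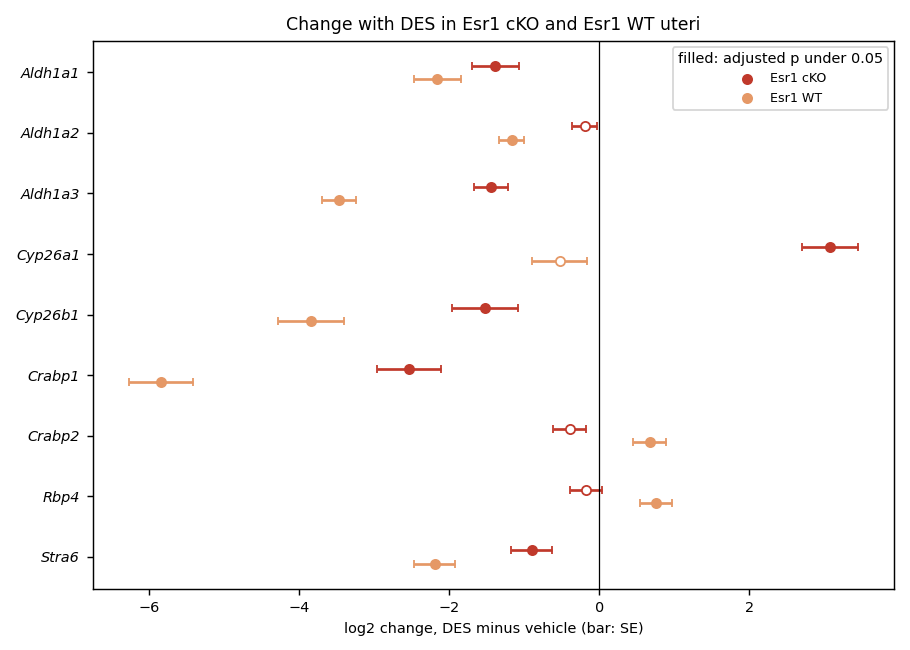
Log2 change with DES (DES minus vehicle, bar: SE) of the 9 genes in Esr1 cKO and Esr1 WT uteri, filled where the adjusted p was under 0.05. Crabp1 changed by -2.53 in Esr1 cKO and -5.84 in Esr1 WT, and Cyp26a1 is the gene that rose in Esr1 cKO.

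The genes of retinol delivery moved in opposite directions with DES in Esr1 WT. Rbp4 (chr19:38116620-38125321) encodes the plasma carrier of retinol. After DES its level was 0.81, 1.12, 1.05 and 0.68 in Esr1 cKO and 2.41, 2.41, 2.10 and 1.65 in Esr1 WT uteri. After vehicle it was 0.87, 1.13, 1.32 and 1.03 in Esr1 cKO and 1.22, 1.37, 1.22 and 1.72 in Esr1 WT. The DES arrays of Esr1 WT lay above all those of Esr1 cKO, while with vehicle the genotypes overlapped. The lowest DES array of Esr1 WT (1.65) overlapped its vehicle group only through vehicle-treated replicate 4 (1.72), the array with the low Xist. The change with DES was -0.17 ± 0.21 in Esr1 cKO and 0.76 ± 0.21 in Esr1 WT (SE, limma adjusted p = 0.779 and 0.00384). Rbp4 thus rose 1.69-fold in Esr1 WT, and the interaction was -0.93 ± 0.30 (limma adjusted p = 0.0214). That call was lost without DES-treated Esr1 WT replicate 1 or 2 (limma adjusted p = 0.0511 and 0.0509).

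Stra6 (chr9:58063793-58154004) encodes the membrane receptor that takes up retinol from its plasma carrier. After DES its level was -1.64, -1.29, -1.35 and -0.99 in Esr1 cKO and -2.68, -2.89, -2.66 and -2.36 in Esr1 WT. After vehicle it was -0.60, -0.18, -0.28 and -0.61 in Esr1 cKO and -0.52, -0.33, 0.16 and -1.13 in Esr1 WT. All DES arrays lay below the vehicle arrays of their genotype, and the DES groups did not overlap. The change was -0.90 ± 0.27 in Esr1 cKO and -2.19 ± 0.27 in Esr1 WT (limma adjusted p = 0.0368 and 1.87e-07), which left 53.6% and 21.9% of the vehicle intensity. The fall in Esr1 cKO lost its call when any of 7 of the 8 arrays was left out (limma adjusted p 0.0506 to 0.115), and the interaction was 1.29 ± 0.39 (limma adjusted p = 0.0143).

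The 3 synthesis genes encode retinaldehyde dehydrogenases, which make retinoic acid from retinaldehyde, and all of them fell with DES in Esr1 WT. Aldh1a1 (chr19:20492583-20643463) had a level of 0.15, -0.995, -1.04 and -1.42 in Esr1 cKO and -1.35, -1.43, -1.38 and -1.95 in Esr1 WT after DES. After vehicle it had 0.30, 0.42, 1.01 and 0.50 in Esr1 cKO and 0.35, 0.94, 0.72 and 0.50 in Esr1 WT. DES arrays lay below vehicle arrays in both genotypes, and the DES groups overlapped. The change was -1.38 ± 0.31 in Esr1 cKO and -2.16 ± 0.31 in Esr1 WT (limma adjusted p = 0.00354 and 1.97e-06). Aldh1a1 was the gene whose interaction was not called, at 0.77 ± 0.44 (limma adjusted p = 0.206). With array weights it was called, at 0.89 (limma adjusted p = 0.0477).

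Aldh1a2 (chr9:71215789-71296243) responded to DES in Esr1 WT and was not called in Esr1 cKO. Its level after DES was 2.65, 2.64, 2.40 and 2.36 in Esr1 cKO and 1.29, 1.26, 1.67 and 1.44 in Esr1 WT. The vehicle level was 2.64, 2.57, 2.91 and 2.69 in Esr1 cKO and 2.62, 2.63, 2.67 and 2.38 in Esr1 WT. Only the DES-treated Esr1 WT arrays lay apart, and the other 3 groups of the line overlapped. The change was -0.19 ± 0.17 in Esr1 cKO and -1.16 ± 0.17 in Esr1 WT (limma adjusted p = 0.635 and 1.47e-06), and the interaction was 0.97 ± 0.24 (limma adjusted p = 0.00276).

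Aldh1a3 (chr7:66390892-66427477) fell the most of the synthesis genes. After DES its level was -0.21, -0.95, -0.89 and -1.04 in Esr1 cKO and -3.28, -2.10, -3.26 and -2.50 in Esr1 WT, and after vehicle 0.61, 0.51, 0.84 and 0.72 in Esr1 cKO and 0.67, 0.62, 0.46 and 0.96 in Esr1 WT. The 4 DES-treated Esr1 WT arrays lay below the 4 Esr1 cKO ones, which in turn lay below both vehicle groups. The change was -1.44 ± 0.23 in Esr1 cKO and -3.46 ± 0.23 in Esr1 WT (limma adjusted p = 5.12e-05 and 8.55e-13), an 11.0-fold fall in WT, with an interaction of 2.02 ± 0.32 (limma adjusted p = 3.62e-05). The second probe, dimmer than the first, changed by -1.26 in Esr1 cKO (limma adjusted p = 0.218 over all probes) and -4.25 in Esr1 WT. No DES-treated Esr1 WT array lay above its array's 30th percentile at this probe, so the fall there is given as a bound of -2.82 on the log2 scale.

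The breakdown genes took different courses. Cyp26a1 (chr19:37697738-37701536) encodes a cytochrome P450 that hydroxylates retinoic acid. After DES its level was -1.79, -2.85, -0.99 and -1.31 in Esr1 cKO and -5.62, -5.81, -4.97 and -5.99 in Esr1 WT. With vehicle it was -4.60, -5.19, -4.68 and -4.78 in Esr1 cKO and -4.71, -4.86, -5.90 and -4.82 in Esr1 WT. Each DES-treated Esr1 cKO array lay above every array of the other 7 groups, and those of the other groups in the line overlapped. The change was 3.08 ± 0.37 in Esr1 cKO and -0.53 ± 0.37 in Esr1 WT (limma adjusted p = 7.5e-07 and 0.239), which is an 8.45-fold rise in Esr1 cKO and no call in WT. The interaction was 3.61 ± 0.52 (limma adjusted p = 9.53e-06), and after DES the cKO was 14.6-fold higher than the WT. In the Foxa2 and Foxo1 lines no array lay above its 30th percentile for Cyp26a1.

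Cyp26b1 (chr6:84571414-84593908) encodes a second retinoic acid hydroxylase and, unlike Cyp26a1, fell with DES in both genotypes. Its level after DES was -1.23, -1.68, -0.81 and -1.10 in Esr1 cKO and -3.50, -3.07, -3.06 and -3.25 in Esr1 WT. With vehicle it was 0.57, 0.24, 0.32 and 0.12 in Esr1 cKO and 0.32, 0.04, 0.16 and 1.94 in Esr1 WT. DES groups lay below vehicle groups without overlap and were apart from each other, and the highest vehicle value belonged to the array with the low Xist. The change was -1.52 ± 0.44 in Esr1 cKO and -3.84 ± 0.44 in Esr1 WT (limma adjusted p = 0.0254 and 3.8e-08), with an interaction of 2.32 ± 0.62 (limma adjusted p = 0.00634). Without vehicle-treated Esr1 WT replicate 4 the change in WT was -3.39 (limma adjusted p = 2.8e-07). The call in Esr1 cKO was lost without any of 5 arrays (limma adjusted p 0.0512 to 0.0858) and with replicate number as a block (limma adjusted p = 0.0594).

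Among the binding proteins, Crabp1 (chr9:54764748-54773110), a cellular retinoic acid carrier, had the largest fall of the 9 genes. After DES its level was -0.06, 0.33, -0.14 and -0.36 in Esr1 cKO and -3.54, -3.77, -2.51 and -2.74 in Esr1 WT. After vehicle it was 2.66, 2.49, 2.36 and 2.40 in Esr1 cKO and 2.42, 2.44, 2.36 and 3.56 in Esr1 WT. The 3 sets of arrays, DES-treated Esr1 WT, DES-treated Esr1 cKO and vehicle, did not overlap. The change was -2.53 ± 0.42 in Esr1 cKO and -5.84 ± 0.42 in Esr1 WT (limma adjusted p = 0.00011 and 6.17e-12), leaving 17.3% and 1.75% of the vehicle intensity. The interaction was 3.30 ± 0.60 (limma adjusted p = 0.000164), and without vehicle-treated Esr1 WT replicate 4 the change in WT was -5.55 (limma adjusted p = 9.61e-11).

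Crabp2 (chr3:87948693-87953372), which delivers retinoic acid to its nuclear receptors, rose in Esr1 WT. Its level after DES was -2.43, -2.82, -2.11 and -2.86 in Esr1 cKO and -1.39, -1.68, -1.65 and -1.58 in Esr1 WT. With vehicle it was -2.26, -2.18, -2.13 and -2.10 in Esr1 cKO and -2.14, -2.18, -1.91 and -2.75 in Esr1 WT. The DES-treated Esr1 WT arrays lay above all other arrays of the line. The change was -0.39 ± 0.22 in Esr1 cKO and 0.67 ± 0.22 in Esr1 WT (limma adjusted p = 0.356 and 0.0115), and the interaction was -1.06 ± 0.31 (limma adjusted p = 0.0115). The rise in WT lost its call without vehicle-treated Esr1 WT replicate 4, at 0.51 with a limma adjusted p of 0.0598, and kept it without both arrays that stood apart (limma adjusted p = 0.0455).

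Without DES, the Esr1 genotypes were not told apart at these genes. None of the 9 was called between Esr1 cKO and Esr1 WT after vehicle by limma, against 2.68% of all genes called higher and 4.79% called lower. None had an unadjusted limma p under 0.05, which 3287 of the 17145 genes had. The median difference was -0.01 for the 9 genes and -0.07 for all genes. The largest differences were -0.30 for Cyp26b1 and -0.29 for Rbp4, with SEs of 0.44 and 0.21. Without vehicle-treated Esr1 WT replicate 4, none was called, the Cyp26b1 difference was 0.14, the Rbp4 difference was -0.18, and the 9 genes ran from -0.19 for Stra6 to 0.34 for Cyp26a1. After DES, 6 of 9 genes were higher and 2 lower in Esr1 cKO than in Esr1 WT, against 16.6% and 13.9% of all genes. The differences ran from -1.23 for Rbp4 to 3.87 for Cyp26a1, with 3.09 for Crabp1, 2.01 for Aldh1a3 and for Cyp26b1, 1.33 for Stra6, 1.10 for Aldh1a2 and -0.98 for Crabp2. Aldh1a1 was 0.70 higher in Esr1 cKO after DES and was not called (limma adjusted p = 0.0949), but was called without both arrays that stood apart (0.0338) and with array weights (0.0189).

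**Figure D3:**
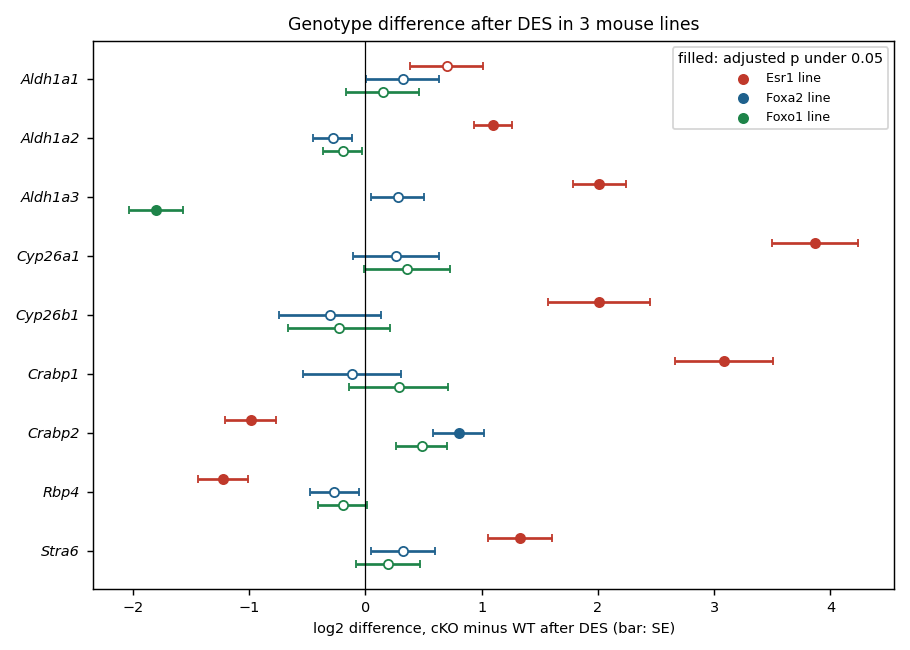
Log2 difference between cKO and WT after DES (bar: SE) of the 9 genes in the Esr1, Foxa2 and Foxo1 lines, filled where the adjusted p was under 0.05. In the Esr1 line 8 genes are filled, in the Foxa2 line Crabp2 (0.80) and in the Foxo1 line Aldh1a3 (-1.80).

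Aldh1a3 was lower in Foxo1 cKO than in Foxo1 WT uteri. After DES its level was -2.53, -2.49, -2.78 and -3.13 in Foxo1 cKO and -1.10, -0.65, -0.70 and -1.26 in Foxo1 WT uteri, with no overlap. The difference was -1.80 ± 0.23 (limma adjusted p = 5.49e-05), a 3.49-fold lower intensity in the cKO. It was -1.63 over replicates 1 and 2 and -1.97 over replicates 3 and 4, whose lowest intensities differ. Of the 9 genes, 1 was called lower and none higher in this line, against 0.0408% and 0.181% of all genes. The dimmer Aldh1a3 probe was not above the 30th percentile on any array of these groups and differed by -0.53 (limma adjusted p = 1 over all probes), and with the mean of both probes the difference was -1.17 (limma adjusted p = 0.334). Crabp2 differed by 0.48 without overlap of the arrays (limma adjusted p = 1). The mean Aldh1a3 level of -0.93 in DES-treated Foxo1 WT lay above those of DES-treated Foxa2 WT (-2.50) and DES-treated Esr1 WT (-2.79), and these lines were not compared by a test. Of 8 epithelial markers 1 was called in this line, Cdh1, which was higher in Foxo1 cKO than in Foxo1 WT by 2.24 (limma adjusted p = 0.00295). The summed level of the 8 markers ran from 8.97 to 9.71 in Foxo1 cKO and from 9.07 to 9.29 in Foxo1 WT, and no marker of the other 9 lists was called. Their part in the Aldh1a3 difference was not tested.

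Between Foxa2 cKO and Foxa2 WT, 1 of the 9 genes was called higher and none lower, against 1.11% of all genes called higher and 1.1% called lower. Crabp2 had a level of -0.78, -0.32, -1.61 and -1.23 in Foxa2 cKO and -2.06, -1.88, -1.33 and -1.89 in Foxa2 WT after DES, and the arrays overlapped. The difference was 0.80 ± 0.22 (limma adjusted p = 0.0485). It was 1.42 over replicates 1 and 2 and 0.19 over replicates 3 and 4. Without DES-treated Foxa2 WT replicate 1 it was 0.71 with a limma adjusted p of 0.136, and the call was lost in 16 of 23 alternatives. With only the groups compared in the fit, the limma adjusted p for Crabp2 was 0.821. The other 8 genes differed by -0.30 to 0.32 and were not called. Without both arrays that stood apart they differed by -0.78 (Crabp1) to 0.42 (Cyp26a1), again with no call, and Cyp26b1 differed by 0.22 in place of -0.30. Cyp26a1 was dim on every array of both groups, so its difference here does not measure a change.

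The other genes of the retinoid pathway were described by lists. The counts here and in the paragraphs that follow stand beside the shares of all genes tested. With DES in Esr1 WT, 21.5% of all genes were called higher and 30.3% lower, and in Esr1 cKO 6.39% and 2.58%. After DES, 16.6% of all genes were higher and 13.9% lower in Esr1 cKO than in Esr1 WT. Of 16 measured genes for retinol and retinaldehyde oxidation or reduction, 4 rose and 0 fell with DES in Esr1 cKO, and 6 rose and 4 fell in Esr1 WT, with list medians of -0.05 and 0.20 beside -0.04 and -0.16 for all genes. Dhrs9, a retinol dehydrogenase, rose by 3.66 ± 0.63 in Esr1 cKO and 6.43 ± 0.63 in Esr1 WT (limma adjusted p = 0.000145 and 1.94e-09). Adh1, an alcohol dehydrogenase that can act on retinol, rose by 2.29 in Esr1 cKO and 3.86 in Esr1 WT (limma adjusted p = 6.98e-09 and 1.59e-14). Adh7, another, rose by at least 0.01 in Esr1 cKO and at least 2.43 in Esr1 WT, since its vehicle arrays were dim, and Rdh16 by at least 0.12 in Esr1 WT. After DES the 5 genes lower in Esr1 cKO than Esr1 WT included Adh7 (-2.68), Dhrs9 (-2.36), Adh1 (-1.62) and Rdh16 (bound -0.43). Between Foxa2 cKO and Foxa2 WT the Adh7 difference was -2.29 (limma adjusted p = 0.000106), the single call of this list in that line.

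Among the genes of retinol transport and storage, Lrat encodes the enzyme that stores retinol as ester. Lrat had a mean level of -3.75 in Esr1 cKO and 0.36 in Esr1 WT after DES, against -4.80 and -4.74 after vehicle. It rose by 1.05 ± 0.31 in Esr1 cKO and 5.10 ± 0.31 in Esr1 WT (limma adjusted p = 0.0317 and 1.98e-13). Lrp2, an endocytic receptor that can take up the retinol carrier, rose by 0.85 in Esr1 cKO and fell by 1.59 in Esr1 WT (limma adjusted p = 0.0084 and 5.45e-07). Lpl, a lipoprotein lipase, changed by -1.87 in Esr1 WT (limma adjusted p = 0.00657), and Bco1, which cleaves carotene to retinaldehyde, was called higher there but was dim in its vehicle arrays. Of the 10 measured genes, 2 rose and 0 fell in Esr1 cKO, and 4 rose and 2 fell in Esr1 WT, with list medians of 0.23 and -0.14. After DES, 2 of them were higher and 4 lower in Esr1 cKO than in Esr1 WT, among them Lrat (-4.11, limma adjusted p = 5.76e-11) and Lrp2 (2.06, limma adjusted p = 1.66e-08).

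Of 12 measured receptors, carriers and coregulators, 1 rose in Esr1 cKO, and 4 rose and 2 fell in Esr1 WT, with list medians of 0.07 and 0.13. Rarb, a retinoic acid receptor whose own gene is known to be induced by retinoic acid, had mean levels of -0.22 in Esr1 cKO and -1.73 in Esr1 WT after DES, and its change in WT was -1.58 ± 0.20 (limma adjusted p = 2.58e-07). Nrip1, a nuclear receptor corepressor, rose by 0.67 in Esr1 cKO and 1.82 in Esr1 WT (limma adjusted p = 0.0428 and 4.8e-08). Fabp5, a fatty acid binding protein that can carry retinoic acid, rose by at least 0.86 in Esr1 WT, where its vehicle arrays were dim, and Ppard, a nuclear receptor, rose by 1.12 there with overlapping arrays (limma adjusted p = 0.0156). After DES, 1 gene of this list was higher and 3 were lower in Esr1 cKO than in Esr1 WT, among them Fabp5 at -1.90 and Nrip1 at -0.92 (limma adjusted p = 2.12e-05 and 0.00118). Of 15 measured genes known to be induced by retinoic acid, which share Rarb, Lrat and Dhrs3 with the lists above, 2 rose in Esr1 cKO, and 3 rose and 7 fell in Esr1 WT, with list medians of 0.19 and -0.51. Tgm2, a transglutaminase, rose by 2.28 in Esr1 WT (limma adjusted p = 2.28e-10), and Gata4, a transcription factor, changed by 1.84 in Esr1 cKO and by -0.95 in Esr1 WT (limma adjusted p = 0.000345 and 0.0193). Plaat3, a phospholipid-modifying enzyme, rose by 2.02 in Esr1 WT, and Nr2f2, a nuclear receptor, changed by -1.60 (limma adjusted p = 0.00304 and 7.86e-08). After DES, 7 genes of this list were higher and 3 lower in Esr1 cKO than in Esr1 WT, with a list median of 0.77 beside 0.03 for all genes. Among the lower genes were Tgm2 at -1.89 and Plaat3 at -1.54 (limma adjusted p = 2.14e-08 and 0.0341). Between Esr1 cKO and Esr1 WT after vehicle, Adh4 (2.33), Ppard (1.27) and Gata4 (-1.96) were the calls in the 4 lists (limma adjusted p = 0.0142, 0.0376 and 0.000208). In the Foxa2 line the largest differences in the lists without a call were -1.68 for Plaat3, -0.996 for Rxra and 0.81 for Rbp2 (limma adjusted p = 0.117, 0.0931 and 0.318). In the Foxo1 line no gene of the 4 lists was called by limma, and the largest differences were 0.68 for Plaat3, 0.59 for Lrat, 0.41 for Aldh8a1 and 0.40 for Rarb (limma adjusted p = 1 each).

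**Figure D4:**
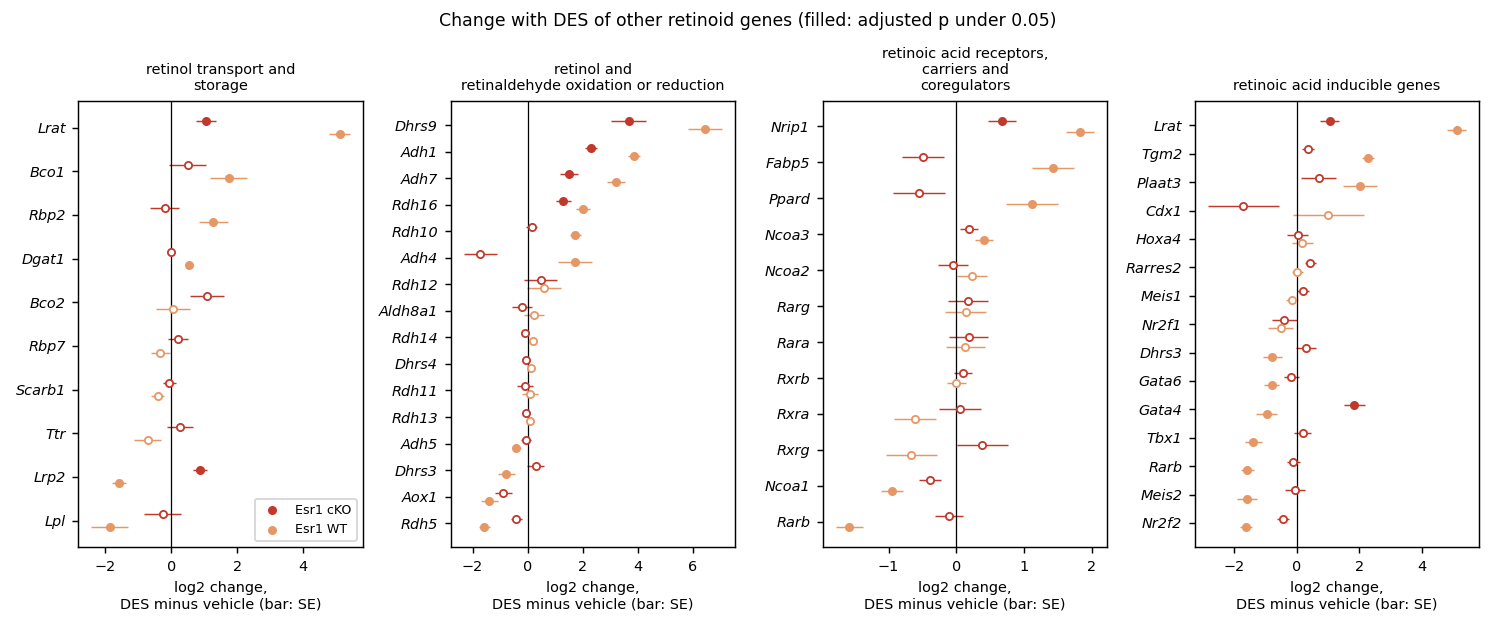
Log2 change with DES (bar: SE) of the measured genes of the 4 other retinoid lists in Esr1 cKO and Esr1 WT uteri, filled where the adjusted p was under 0.05. Lrat, Dhrs9 and Adh1 lie farthest to the right in Esr1 WT, and Lpl, Nr2f2 and Lrp2 lie far to the left.

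Cell type markers also changed with DES in Esr1 WT. Beside them, 21.5% of all genes tested were called higher and 30.3% lower with DES in Esr1 WT. In Esr1 cKO these shares were 6.39% and 2.58%. Between Esr1 cKO and Esr1 WT after DES they were 16.6% and 13.9%. Of 8 epithelial markers, including Cdh1 and Epcam, 2 rose with DES in Esr1 cKO and 7 in Esr1 WT. Their summed level ran from 8.60 to 8.93 after DES and from 7.22 to 7.98 after vehicle in Esr1 WT. Of 7 smooth muscle markers, 0 fell in Esr1 cKO and 5 in Esr1 WT, with summed levels in Esr1 WT of 7.77 to 8.01 after DES and 8.39 to 9.10 after vehicle. In Esr1 WT, 4 of 6 endothelial markers fell, and 4 of 5 measured leukocyte markers rose and 1 fell. Of 7 mesothelial markers 1 rose and 1 fell in Esr1 WT, and of 6 measured ovarian markers 2 rose and 2 fell. Of 5 markers of oviduct and ciliated cells 2 rose and 1 fell there, and of 5 measured liver markers 0 rose and 1 fell. The stromal markers, where Aldh1a2 is known to be expressed, gave 1 rise and 3 falls of 8 in Esr1 WT and 1 rise in Esr1 cKO. Of 6 fat markers, 2 fell with DES in Esr1 WT and 0 were called in Esr1 cKO. Adipoq was not above the 30th percentile on any DES-treated array of Esr1 cKO or Esr1 WT. Fabp4 had a mean level after DES of -1.06 in Esr1 cKO and 1.76 in Esr1 WT (limma adjusted p = 0.00101), and the other 5 were not called there. The summed level of the 6 after DES ran from -1.09 to -0.29 in Esr1 cKO and from 1.56 to 2.05 in Esr1 WT. After vehicle it varied widely between arrays of a group, from -0.07 to 4.03 in Esr1 cKO and from -0.03 to 4.00 in Esr1 WT. After DES, 5 of the 8 epithelial markers were lower and 4 of the 7 smooth muscle markers higher in Esr1 cKO than in Esr1 WT. In the Foxa2 line Foxj1, a marker of ciliated cells, was the single marker called, at -1.63 (limma adjusted p = 0.0178). The part of these shifts in the changes above was not tested.

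Some genes outside the lists tracked the members over the 32 arrays, which share their groups, so that a Pearson correlation here mainly follows the group means and carries no test. Crabp1 was most like Dlgap3 (r = 0.98), Zcchc18 (0.98) and Cpxm2 (0.98), and Cyp26b1 most like Tgfbi, Mta1 and Wnt6 (0.96 each). For Aldh1a2 the nearest were Phtf1 (0.95), Glis1 and Bambi (0.94 each), for Aldh1a3 Amhr2, Nqo1 (0.94 each) and Nav1 (0.93), and for Rbp4 Maff (0.94), Cgnl1 (0.93) and Ift43 (0.92). The genes nearest to Cyp26a1 were Klhl14 (0.86), Dynlrb2 (0.83) and Dpp4 (0.82). Stra6 was nearest to Aplp1 (0.93), Vwa1 and Slc22a17 (0.92 each), and Crabp2 to Gbp11, Lig3 and Cuzd1, at 0.81, 0.80 and 0.80. Aldh1a1 was nearest to Aldh1a7, at 0.94, followed by Jph1 and Fhod3 at 0.93. Aldh1a7 is a closely related mouse gene whose probe may share signal with that of Aldh1a1.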

How the data were processed

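The authors deposited an intensity for every probe of 32 single-colour Agilent arrays, and the submitters' processing notes name Agilent Feature Extraction 12. The sources used here do not say how background was corrected. The deposited intensities ran from 1.87 to 922772, and array 75th percentiles from 551 to 9024, so arrays were scaled to a common 75th percentile on the log2 scale. Probes above their array's 30th percentile on at least 4 arrays were kept (36657 of 45018), and the kept probe with the highest mean stood for each gene. No depth is given for arrays, and their number limits the precision. Of the probes, 33653 carried 1 gene symbol, 56 several and 11309 none, and only the first were used.

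Comparisons used limma 3.58.1 under R 4.3.3, fitted over all 32 arrays, with 24 residual degrees of freedom and Benjamini-Hochberg adjustment per comparison. A probe with no array of a group above the 30th percentile was dim there. Its change could be given as a bound only where the other group was brighter, and not where both groups were dim. The 9 genes, the other lists and the rule for named genes were chosen with earlier results of these data known. The rule names all 9 members, up to 4 called genes per list with the largest change (where none was called, the gene with the largest value), and the 3 most correlated genes per member. In the interaction the lists are not described gene by gene, and genes outside the rule are named only as markers or for the check of an array, chosen after their values were seen.

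Whether replicate numbers pair the samples was checked by the correlation of deviations from group means. In the Foxo1 line all 4 same-numbered pairs correlated, at 0.29 to 0.38, so the numbers were taken to pair those samples. In the other comparisons they did not all pass 0.1. Alternatives were other scalings, filters and probe summaries, an adjusted p under 0.01, a 2-fold minimum, array weights, the replicate block and leaving out arrays. The sources used here name no culture, litter or slide. The p-values rest on the spread between samples within groups, pooled over all 8 groups and moderated over genes. They are not set by the groups compared alone.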

Additional observations from a re-analysis of the deposited data

Results flagged for a closer look

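Of 80 sets of 4 arrays examined, 6 held an array whose gap to the nearest other array, divided by the range of the group, was above Dixon's 95% critical value for 4 samples, which chance alone gives in about 1 of 20 sets. Of these, 3 were on vehicle-treated Esr1 WT replicate 4, the array with the low Xist level: Crabp1 at 3.56, Cyp26b1 at 1.94 and Aldh1a2 at 2.38. The others were Aldh1a1 at -1.95 on DES-treated Esr1 WT replicate 4, Cyp26a1 at -5.90 on vehicle-treated Esr1 WT replicate 3 and Rbp4 at 2.21 on DES-treated Foxo1 WT replicate 1. The response to DES differed between Esr1 cKO and Esr1 WT in 8 genes by the interaction test. The change in Esr1 cKO minus the change in Esr1 WT was 3.61 for Cyp26a1, 3.30 for Crabp1, 2.32 for Cyp26b1, 2.02 for Aldh1a3, 1.29 for Stra6, 0.97 for Aldh1a2, -0.93 for Rbp4 and -1.06 for Crabp2.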

How the results depend on the processing

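Of 32 results called for single members, 20 kept their call and direction under every alternative run. Of 31 member results not called, 29 stayed so, and none reversed as a called value. Genes of the other lists and cell type markers are not part of these counts. The count of genes with a called interaction was 8, and 5 at an adjusted p under 0.01. It was 9 with array weights, where Aldh1a1 was called as well. In the Foxa2 line the count of 1 (Crabp2) was 0 with the mean of probes, all probes, median scaling, an adjusted p under 0.01, the replicate block, a 2-fold minimum, no probe filter, only the groups compared, quantile normalization or without both arrays that stood apart, and 0 to 1 when single arrays were left out. In the Foxo1 line the count of 1 (Aldh1a3) was 0 with the mean of probes and with all probes, where the dim probe enters. With the replicate block the counts were 8 for DES in Esr1 WT, 5 for DES in Esr1 cKO and 8 for the interaction. They were 0 for Esr1 cKO against WT after vehicle, 8 after DES, and 1 in the Foxo1 line, where the numbers were taken to pair the samples. Leaving out both arrays that stood apart was chosen after the data were seen and gave 8 genes for DES in Esr1 WT. The count for DES in Esr1 cKO was 6, and 4 at an adjusted p under 0.01 and 4 to 5 when single arrays were left out. The causes of the lost calls were not tested. The arrays measure low intensities poorly, which limits Cyp26a1 outside the DES-treated Esr1 cKO group and the dimmer Aldh1a3 probe.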
